A study of Mus musculus with 4 samples.

Results

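The genes described here are 7 regulators of G protein signaling (RGS), Rgs1, Rgs2, Rgs3, Rgs10, Rgs14, Rgs16 and Rgs19, measured in flow-sorted CD4 T cells from mouse lung. They were chosen by symbol, 7 of 31053 genes in the count matrices, with earlier results of these data known. All 7 were found in both gene expression libraries. The cells came from C57BL/6 mice, tumor-bearing lungs 3 weeks after TC1 tumor cells, a transplantable mouse lung epithelial tumor line, were given by tail vein, and normal lungs of age-matched mice that received none. Each tissue gave 1 droplet gene expression library and 1 T cell receptor library, and the sources used here do not give the number of mice behind a library.

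Chemokine receptors and sphingosine phosphate receptors steer T cells by activating Gi proteins. RGS proteins bind the active Gα subunit, speed the hydrolysis of its GTP and so end the signal, and the cell's response to a chemokine depends on how much of them it holds. In lymphocytes Rgs1 is known for restraining migration toward chemokines and for its presence in tissue-resident T cells, Rgs2 for acting mainly on Gq, Rgs16 for induction by T cell activation, and Rgs10 for a short protein with little beside its RGS domain. Rgs3 acts on Gi and Gq, Rgs14 carries a GoLoco motif and Ras-binding domains, and Rgs19, also called GAIP, binds Gαi3. Cells were split by the transcript of Foxp3, the transcription factor of regulatory T cells (Tregs), and by that of Ccr7, the lymph node homing receptor of naive and central memory cells. A plus sign below means at least 1 unique molecular identifier (UMI, a count of distinct captured molecules) and a minus sign means 0, so a minus cell may still express the gene. Levels are given in CPM, UMIs of the gene scaled to a common total of all UMIs in the cells of that gate and library.

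The tumor library gave 7135 kept cells with a median of 4173 UMIs, and the normal library gave 7082 with a median of 3906. The gates held 746 tumor and 31 normal Foxp3+ Ccr7- cells, 401 tumor and 175 normal Foxp3+ Ccr7+ cells, 1139 tumor and 682 normal Foxp3- Ccr7- cells, and 4849 tumor and 6194 normal Foxp3- Ccr7+ cells. Only 123797 UMIs stand behind the normal Foxp3+ Ccr7- gate, against 3697457 in the tumor library, so each value there is coarse. At least 1 of the 5 CD4 T cell markers was found in at least 98.7% of the cells of every gate, while S100a8, S100a9, Ms4a1, Ppbp, Hba-a1 and Hbb-bs were at 0 in both libraries. Cd4 itself had a UMI in 52.6% of normal Foxp3+ Ccr7+ cells, the lowest share, to 67.7% of normal Foxp3+ Ccr7- cells. A UMI of Cd8a or Cd8b1 was found in up to 14.5% of cells, in tumor Foxp3+ Ccr7+ cells. Of 23 markers of other lineages, 7 were at 0 in all tumor and 8 in all normal cells, and their summed level in the gates ran from 238 to 539 CPM in tumor and from 200.2 to 517 CPM in normal, highest in Foxp3+ cells of both. B cell markers gave 417 CPM of the 539 in tumor Foxp3+ Ccr7- cells, and lung epithelium markers were higher in tumor in every gate, at 48.7 CPM in tumor and 8.08 in normal Foxp3+ Ccr7- cells, 19.1 in tumor and 2.58 in normal Foxp3+ Ccr7+ cells, 10.0 in tumor and 1.22 in normal Foxp3- Ccr7- cells, and 5.83 in tumor and 2.22 in normal Foxp3- Ccr7+ cells. The normal lung epithelium values rested on 1, 2, 3 and 55 UMIs in that gate order. The part of these transcripts in the RGS levels was not tested beyond leaving such cells out. The libraries shared 74 barcodes among kept cells. With 1 library per tissue no test was possible: tissue, mice and library preparation cannot be told apart, and every interval below is a 95% interval for counting error only.

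The 200 bases before the transcription start are shown for the pair of members with the largest excess in Foxp3+ over Foxp3- cells of the tumor Ccr7- gate, Rgs2 and Rgs16, and for Rgs10, the member that was most abundant in Ccr7+ Foxp3- cells. They come from RefSeq on GRCm38.p6, in which 5 of the 7 members had an entry, and run 5′ to 3′ on the gene's own strand. Rgs2 is at chr1:144004150-144004349 on the minus strand, Rgs16 at chr1:153740153-153740352 on the plus strand and Rgs10 at chr7:128418173-128418372 on the minus strand, inside the annotated Rgs10 gene. Capitals mark TGACG on either strand, which is the core of the response element for cyclic AMP. They also mark an AT-rich stretch close to the start, TAAAAG, which was searched for after the Rgs2 sequence had been read.
Rgs2: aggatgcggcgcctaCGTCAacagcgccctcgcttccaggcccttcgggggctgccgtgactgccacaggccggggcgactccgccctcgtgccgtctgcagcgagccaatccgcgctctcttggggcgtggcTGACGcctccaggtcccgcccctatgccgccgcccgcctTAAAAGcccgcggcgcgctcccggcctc
Rgs16: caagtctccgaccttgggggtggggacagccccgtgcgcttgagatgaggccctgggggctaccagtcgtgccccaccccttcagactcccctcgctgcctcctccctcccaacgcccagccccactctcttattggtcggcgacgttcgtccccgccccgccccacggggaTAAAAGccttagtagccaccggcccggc
Rgs10: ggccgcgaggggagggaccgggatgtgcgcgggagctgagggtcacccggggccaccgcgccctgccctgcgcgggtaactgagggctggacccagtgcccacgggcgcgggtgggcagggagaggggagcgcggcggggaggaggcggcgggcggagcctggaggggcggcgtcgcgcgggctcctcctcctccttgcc
The core TGACG, searched on both strands, occurred at 2 places in the Rgs2 window, and 15.7% of 32851 promoter windows of the same length hold at least 1. It was not found in the Rgs16 and Rgs10 windows, and the full palindromic element was in none of the 3. TAAAAG began 28 bases before the start, at position -28, in both Rgs2 and Rgs16, and 1.15% of the windows hold it on the gene's strand at a position between -35 and -20. The GC content of the Rgs2, Rgs16 and Rgs10 windows was 73.5%, 68.5% and 79.5%, against a median of 53.0% over all windows.

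Rgs1 and Rgs2 lie in a stretch of chromosome 1 that holds 5 RGS genes, and the data show which of them these cells used. Rgs2 (chromosome 1, 143999338 to 144004149) had 7115 UMIs in kept tumor cells and 4204 in kept normal cells, and Rgs1 (144244669 to 144249104) had 12132 in tumor and 2633 in normal cells. Between and beyond them, Rgs13 (144137386 to 144177372), Rgs21 (144519690 to 144567667) and Rgs18 (144752683 to 144775427) had 0 UMIs in each library, which allows up to 0.0940 CPM in tumor cells and 0.107 in normal cells by a floor of 3 counts. Rgs16 lies apart on the same chromosome (153740353 to 153745468). Of 16 other family members on a fixed list, 10 were at 0 in both libraries. Rgs9 was at 56 UMIs in tumor and 5 in normal cells (9.85-fold, 3.98 to 31.5), and Rgs11 at 210 UMIs in tumor and 211 in normal cells.

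Rgs1, a brake on chemokine responses, was the most abundant member in tumor Foxp3+ Ccr7- cells and was higher in the tumor library in all 4 gates. In Foxp3+ Ccr7- cells it stood at 1045 CPM in tumor cells and 493 CPM in normal cells, and in Foxp3+ Ccr7+ cells at 582 in tumor and 195 in normal. In Foxp3- Ccr7- cells the levels were 708 in tumor and 333 in normal, and in Foxp3- Ccr7+ cells 172 in tumor and 64.8 in normal. The tumor level was thus higher in each gate. The 10% of cells with most Rgs1 UMIs held from 34.9% of them in tumor Foxp3+ Ccr7+ to 74.5% in normal Foxp3- Ccr7+ cells. Counting intervals do not take account of this spread between cells. The Rgs1 ratios of tumor over normal were 2.12 (1.65 to 2.78), 2.99 (2.53 to 3.56), 2.13 (1.97 to 2.30) and 2.65 (2.50 to 2.82) in the same gate order. Over all kept cells the ratio was 4.05, larger than in any gate, and Foxp3+ cells made up 16.1% of the tumor and 2.91% of the normal cells.

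A larger share of tumor than of normal cells had a Rgs1 UMI in every gate. A UMI was found in 85.9% of tumor and 64.5% of normal Foxp3+ Ccr7- cells, and with every cell thinned to 2417 UMIs in 76.6% of tumor cells (73.3 to 79.7) and 58.6% of normal cells (38.9 to 76.5). The lowest unthinned share was in Foxp3- Ccr7+ cells, at 35.4% in tumor and 16.6% in normal, with median depths of 4176 and 3939 UMIs against 4566 in tumor and 3910.0 in normal Foxp3+ Ccr7- cells. No class of cells that should lack Rgs1 was present, so the share from free RNA was not measured; if free RNA is even across cells, that lowest share bounds it. Cells with 5 or more Rgs1 UMIs made up 40.2% of tumor and 12.9% of normal Foxp3+ Ccr7- cells, and 2.91% of tumor and 0.452% of normal Foxp3- Ccr7+ cells.

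Rgs16, which is induced by T cell activation, showed the largest excess in tumor cells of any member in every gate with all kept cells counted. It stood at 353 CPM in tumor and 56.5 in normal Foxp3+ Ccr7- cells, the normal value resting on 7 UMIs, and at 256 in tumor and 42.5 in normal Foxp3+ Ccr7+ cells. Foxp3- cells held far less, 57.6 in tumor and 9.75 in normal Ccr7- cells, and 17.9 in tumor and 3.68 in normal Ccr7+ cells. Tumor over normal ratios were 6.25 (3.02 to 15.6), 6.01 (4.23 to 8.81), 5.91 (3.89 to 9.40) and 4.87 (3.86 to 6.19), close to each other with overlapping intervals. Without cells carrying a UMI of an other-lineage marker, which left 165 tumor and 7 normal Foxp3+ Ccr7- cells and 80 tumor and 54 normal Foxp3+ Ccr7+ cells, the log2 ratio of Rgs16 was 1.58 and 1.52 in these gates. Rgs1 was then the larger in both, at 3.11 and 1.73. No interval was computed for these ratios, and the order in Foxp3+ Ccr7- cells rests on the 7 normal cells. The ratio over all kept cells was 14.6 (12.4 to 17.3). Foxp3+ cells gave 75.1% of the Rgs16 UMIs of the tumor library and 25.8% of those of the normal library.

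Among the Foxp3- cells, Rgs16 came from few cells. In the tumor library 107 of 1139 Foxp3- Ccr7- cells (9.39%, 7.76 to 11.2) and 165 of 4849 Foxp3- Ccr7+ cells (3.40%, 2.91 to 3.95) had a UMI, with up to 17 and 21 UMIs in a cell. The normal library had 17 of 682 (2.49%) and 61 of 6194 (0.985%). The summed level of the Treg list moved with it: the 7 Treg markers reached 1176 CPM in tumor and 452 in normal Foxp3- Ccr7- cells. When Foxp3- cells were also required to have 0 UMIs of Il2ra, Ikzf2 and Lrrc32, a choice made after seeing the data, Rgs1 and Rgs16 were still the members past 1.5-fold in Foxp3- Ccr7- cells. This left 952 tumor and 621 normal cells of that gate. In tumor the 3 markers stood at 38.1, 78.6 and 17.6 CPM before it. Ctla4, Tnfrsf18 and Tnfrsf4, at 422, 323 and 296, were not used. Tregs without a UMI of Foxp3 could thus remain, and their part in the RGS levels was not tested.

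**Figure D1:**
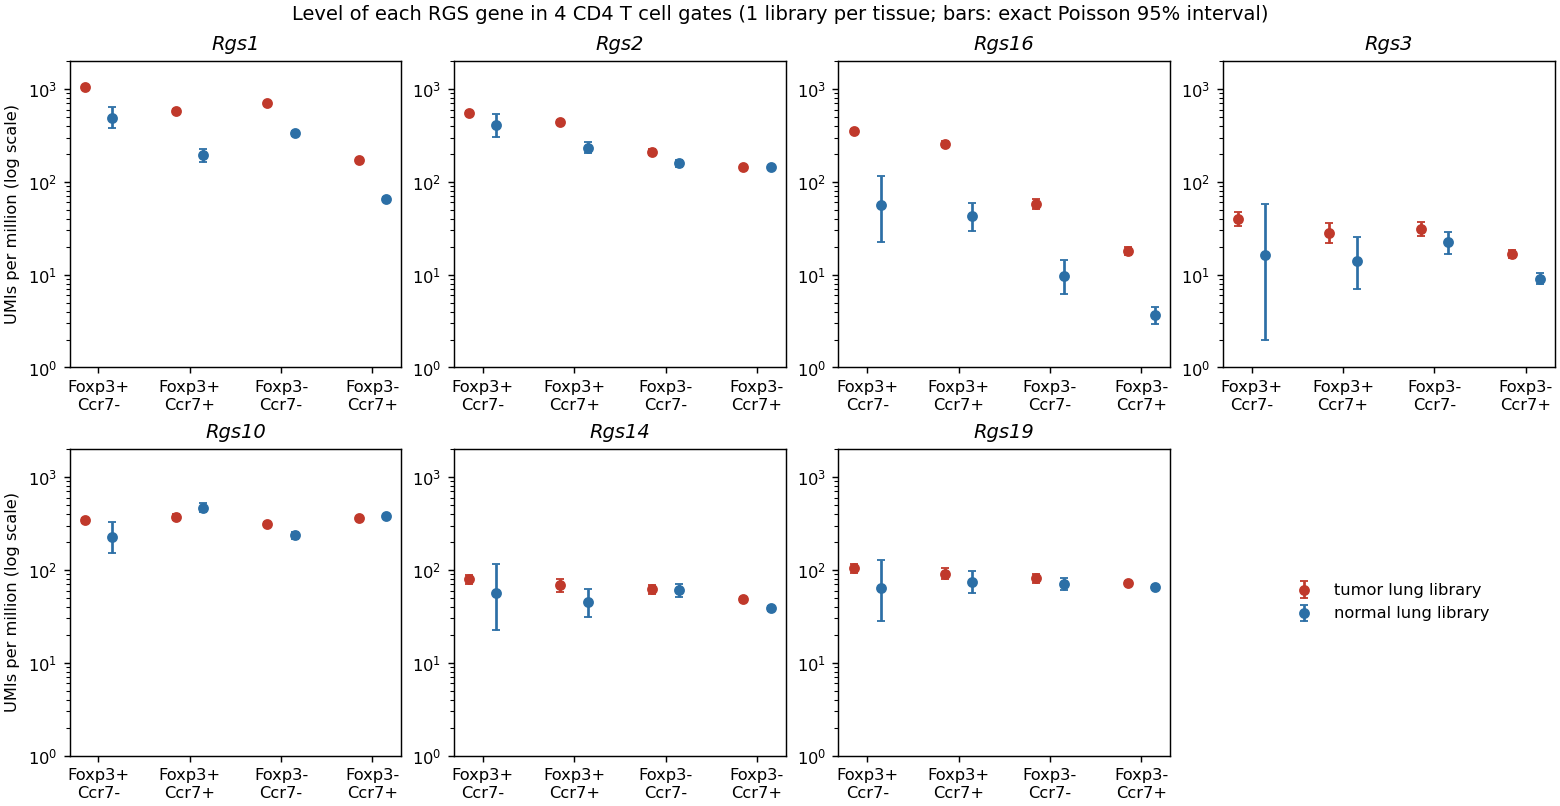
CPM (log scale) of each RGS gene in 4 gates of CD4 T cells, tumor lung library in red and normal lung library in blue, with exact Poisson 95% intervals. Rgs1 and Rgs16 are higher in the tumor library in every gate, Rgs2 is graded from Foxp3+ to Foxp3- cells, and Rgs10 stays between 226 and 469 throughout.

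Rgs2, which acts mainly on Gq-coupled signals, was higher in Foxp3+ than in Foxp3- cells of both libraries. Its level in Foxp3+ Ccr7- cells was 555 CPM in tumor and 412 in normal (1.35-fold, 1.02 to 1.81), and in Foxp3+ Ccr7+ cells 441 in tumor and 234 in normal (1.88-fold, 1.61 to 2.21). Foxp3- Ccr7- cells held 210.3 in tumor and 158 in normal (1.33-fold). In Foxp3- Ccr7+ cells the 2 libraries differed by less than counting error, at 143 in tumor and 145 in normal (ratio 0.985, 0.938 to 1.03). The interval of that ratio lies within 1.5-fold on either side.

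Rgs10, the small RGS protein, was the member with most UMIs in Foxp3- Ccr7+ cells, where it made up 43.7% of the summed UMIs of the 7 genes in tumor and 53.7% in normal cells. Its level there was 365 CPM in tumor and 378 in normal (ratio 0.965, 0.936 to 0.994). In Foxp3+ Ccr7+ cells it was 371 in tumor and 469 in normal (0.791, 0.700 to 0.895), whereas Ccr7- cells had more in the tumor library, 342 in tumor and 226 in normal Foxp3+ cells (1.51, 1.04 to 2.29) and 313 in tumor and 236 in normal Foxp3- cells (1.33, 1.20 to 1.46). Without cells carrying an other-lineage marker, the log2 ratio in Foxp3+ Ccr7- cells was -0.17, on the same side as in Foxp3+ Ccr7+ cells. Whether the gates differ was not tested.

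The remaining members were less abundant. Rgs3 stood at 40.0 CPM in tumor and 16.2 in normal Foxp3+ Ccr7- cells, the normal value from 2 UMIs (ratio 2.48, 0.674 to 20.6). In the other gates its ratios were 2.01 (1.06 to 4.20) in Foxp3+ Ccr7+, 1.38 (1.01 to 1.93) in Foxp3- Ccr7- and 1.86 (1.57 to 2.20) in Foxp3- Ccr7+ cells. Without cells carrying other-lineage markers its log2 ratio was -0.02 in Foxp3+ Ccr7+ cells, and in Foxp3+ Ccr7- cells it was 0.07 and turned to -0.27 when Cd79b and Pecam1 were not used as markers, a setting chosen after seeing the data. Rgs14 lay between 48.4 and 79.0 in the tumor gates and between 38.7 and 60.1 in the normal gates, and Rgs19 between 72.3 and 104 in tumor and between 64.6 and 74.7 in normal. Their tumor over normal ratios ran from 1.03 to 1.51 and from 1.10 to 1.61, with both genes highest in tumor Foxp3+ Ccr7- cells.

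A gene counts as past 1.5-fold when its ratio passes that size and the library with the higher level has at least 20 UMIs in the gate. Where UMI totals are unequal, more genes can reach 20 UMIs on the deeper side, so the shares of all genes depend on depth too. How far they do was not tested. Members were chosen with earlier results of these data known, so the shares are given for scale only. In Foxp3+ Ccr7- cells 5 of the 7 members were past it in the tumor direction, against 41.4% of 4718 genes that had enough UMIs, and in Foxp3+ Ccr7+ cells 5 of 7, against 29.3% of 7121 genes. Foxp3- Ccr7- cells had 2 of 7, against 10.2% of 8635 genes, and Foxp3- Ccr7+ cells 3 of 7, against 6.57% of 10752. No member was past 1.5-fold in the normal direction in any gate, where 3.86%, 5.55%, 5.93% and 3.09% of genes were. In Foxp3+ Ccr7- cells Rgs3, Rgs14, Rgs16 and Rgs19 had 2 to 8 normal UMIs and so could not have been counted as lower. The median log2 ratio of the 7 was 0.68, 0.91, 0.41 and 0.32, beside 0.43, 0.26, 0.00 and 0.02 over all genes counted. Requiring a ratio of 2 left 3 of 7 in each Foxp3+ gate, namely Rgs1, Rgs16 and Rgs3, the last with the turn of side given above. In Foxp3+ Ccr7- cells Rgs3 passed with 2 normal UMIs. The share of all genes past 2-fold was not computed, so the 2-fold counts have no share to be read against.

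**Figure D2:**
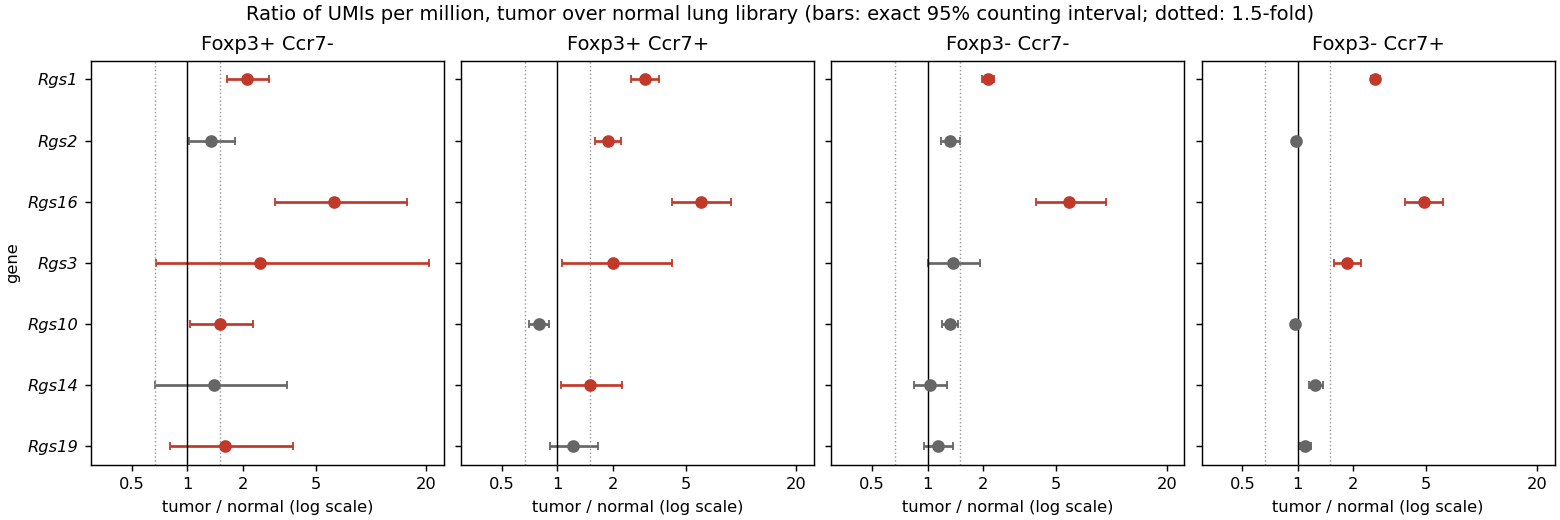
Ratio of CPM in the tumor library over the normal library (log scale) for each RGS gene, 1 panel per gate, with exact 95% counting intervals; red points are past 1.5-fold (dotted lines). Rgs16 lies between 4.87 and 6.25 and Rgs1 between 2.12 and 2.99 in all 4 panels. Rgs10 lies above 1 in the Ccr7- panels and below it in the Ccr7+ panels. Rgs2 lies above 1 except in Foxp3- Ccr7+ cells, at 0.985 with an interval that includes 1.

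Within a library, Foxp3+ cells differed from Foxp3- cells mainly in Rgs16, Rgs2 and Rgs1. Rgs16 was 6.13-fold higher in Foxp3+ than in Foxp3- cells of the tumor Ccr7- gate (5.36 to 7.03) and 14.3-fold higher in the Ccr7+ gate (12.5 to 16.2). In normal Ccr7+ cells it was 11.6-fold higher (7.51 to 17.4), at 42.5 CPM in Foxp3+ and 3.68 in Foxp3- cells. Rgs2 was 2.64-fold higher in tumor and 2.61-fold in normal Ccr7- cells, and 3.09-fold higher in tumor and 1.62-fold in normal Ccr7+ cells. Rgs1 was 1.48-fold higher in Ccr7- cells of each library, 3.38-fold higher in tumor Ccr7+ and 3.00-fold in normal Ccr7+ cells. In the Ccr7- gate 2 of 7 members were past 1.5-fold in Foxp3+ cells of the tumor library, beside 22.2% of genes, and in the normal library 1 of the 6 with enough UMIs, beside 6.30%. Rgs16 had too few UMIs to be counted in normal Ccr7- cells, 7 in Foxp3+ and 24 in Foxp3- cells (5.80-fold, 2.11 to 13.9). In the Ccr7+ gate 4 of 7 were past it in the tumor library, Rgs3 at 1.70-fold being the fourth, beside 22.6% of genes, and in the normal library 3 of the 6 with enough UMIs, beside 6.69%. No member was lower past 1.5-fold in Foxp3+ cells. Of all genes 11.5% were in tumor and 36.6% in normal Ccr7- cells, and 12.8% in tumor and 15.5% in normal Ccr7+ cells. The normal Ccr7- gates held 123797 UMIs in Foxp3+ and 2462171 in Foxp3- cells, with a median log2 ratio over all genes of -0.38. The part of depth in the 36.6% was not tested. In tumor Ccr7- cells Rgs3, Rgs10, Rgs14 and Rgs19 had ratios of 1.29, 1.09, 1.28 and 1.28.

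Splitting by Ccr7 separated Rgs1 from Rgs10. In Foxp3- cells Rgs1 was 4.11-fold higher in Ccr7- than in Ccr7+ cells of the tumor library (3.92 to 4.32) and 5.13-fold higher in the normal library (4.71 to 5.59). Rgs10 went the other way, with Ccr7- over Ccr7+ ratios of 0.857 in tumor (0.809 to 0.907) and 0.623 in normal (0.572 to 0.677). Rgs3 had 1.85 in tumor and 2.48 in normal, and Rgs16 had 3.22 in tumor and 2.65 in normal. In Foxp3+ cells the Rgs1 ratios were 1.79 in tumor and 2.53 in normal, and Rgs10 had 0.923 in tumor and 0.482 in normal (0.316 to 0.709). Past 1.5-fold higher in Ccr7- cells were 3 of 7 members in tumor Foxp3- cells (11.8% of genes), 4 of 7 in normal Foxp3- cells (13.2%), 1 of 7 in tumor Foxp3+ cells (9.08%) and 2 of the 4 with enough UMIs in normal Foxp3+ cells (12.7%). Rgs10 alone was lower past 1.5-fold, in the normal library in both Foxp3 classes, where 9.50% of genes in Foxp3- and 33.4% in Foxp3+ cells were. In the tumor library no member was, beside 5.62% of genes in Foxp3- and 5.08% in Foxp3+ cells. Behind the 33.4% in normal Foxp3+ cells stand 123797 UMIs in Ccr7- and 776135 in Ccr7+ cells, with a median log2 ratio over all genes of -0.29.

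Together the 7 genes gave 2518 CPM in tumor and 1325 in normal Foxp3+ Ccr7- cells, 1837 in tumor and 1075 in normal Foxp3+ Ccr7+ cells, 1462 in tumor and 889 in normal Foxp3- Ccr7- cells, and 835 in tumor and 705 in normal Foxp3- Ccr7+ cells. Rgs1 formed 41.5% of the sum in tumor Foxp3+ Ccr7- cells and 9.20% in normal Foxp3- Ccr7+ cells, whereas Rgs10 formed 13.6% of the sum in the first of these and 53.7% in the second. UMI counts of 5′ libraries count molecules and do not scale with transcript length.

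Single cells carried several of these transcripts at once. At 2417 UMIs per cell, Rgs1, Rgs2 and Rgs16 were all detected in 153 of 689 tumor Foxp3+ Ccr7- cells (22.2%, 19.2 to 25.5) and in 0 of 29 normal ones, where the exact interval reaches 11.9%. Foxp3+ Ccr7+ cells had all 3 in 16.2% of 390 tumor cells (12.6 to 20.2) and in 0.610% of 164 normal cells (0.0154 to 3.35). Shares in Foxp3- Ccr7- cells were 2.73% in tumor and 0.181% in normal. These shares depend on how often each gene alone was detected. In thinned Foxp3+ Ccr7- cells Rgs1, Rgs2 and Rgs16 were found in 76.6%, 60.8% and 44.0% of tumor cells. Normal cells of that gate had 58.6%, 51.7% and 10.3%. Whether all 3 occur together beyond these separate shares was not tested. In Foxp3- Ccr7+ cells all 3 were found in 0.406% of tumor and 0.124% of normal cells. Thinning left out 57 tumor and 2 normal Foxp3+ Ccr7- cells and 11 cells of each library in the Foxp3+ Ccr7+ gate.

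**Figure D3:**
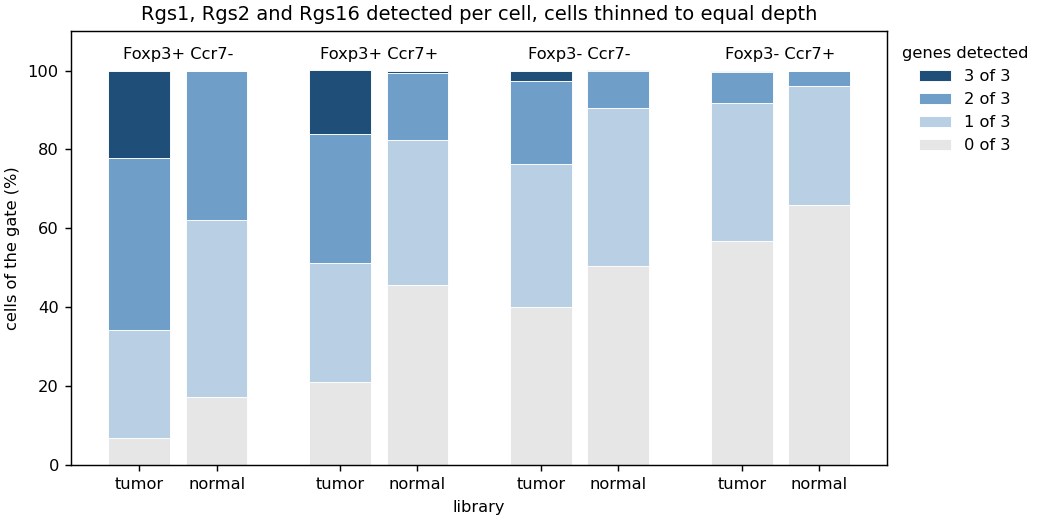
Share of cells (%) in which 0, 1, 2 or 3 of Rgs1, Rgs2 and Rgs16 were detected, per gate and library, tumor left of normal, with cells thinned to 2417 UMIs. The darkest segment, all 3 genes, is 22.2% of tumor and 0% of normal Foxp3+ Ccr7- cells, and 16.2% of tumor and 0.610% of normal Foxp3+ Ccr7+ cells.

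Detection of one gene beside another is given as a description. In thinned tumor Foxp3+ Ccr7- cells Rgs2 was found in 62.1% of cells with Rgs1 and 56.5% of cells without, and Rgs16 in 44.5% of cells with Rgs1 and 42.2% without. In thinned tumor Foxp3+ Ccr7+ cells Rgs2 was found in 63.1% of cells with Rgs1 and 35.7% without, and Rgs16 in 38.2% with and 22.9% without. In tumor Foxp3- Ccr7- cells, a mixed gate, Rgs2 was found in 44.8% of cells with Rgs1 and 20.5% without. In normal Foxp3- Ccr7- cells it was found in 26.7% of cells with Rgs1 and 24.1% without. These shares describe cells of 1 library each.

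Chemoattractant receptors, which signal through G proteins, were then used to split the cells. Those with at least 50 positive and at least 50 other cells were taken. There were 12 such receptors in tumor Foxp3+, tumor Foxp3- and normal Foxp3- cells and 1 in normal Foxp3+ cells. Foxp3- cells positive for any of several receptors had high Rgs1. These splits were not made within the Ccr7 gates. In Foxp3- cells Rgs1 was 4.11-fold higher in Ccr7- than in Ccr7+ cells in tumor and 5.13-fold in normal. The part of the Ccr7 difference in the ratios below was not tested. Rgs1 was at 1221 CPM in Cxcr6+ and 222 in other tumor Foxp3- cells (5.49-fold, 5.17 to 5.82), and at 649.6 in Cxcr6+ and 76.6 in other normal Foxp3- cells (8.48-fold, 7.58 to 9.46). Cxcr6 binds CXCL16 and marks resident cells, and Cxcr3, the receptor of interferon-induced chemokines, gave 5.00-fold in tumor and 5.66-fold in normal cells. For Ccr2 the ratios were 4.80 in tumor and 6.26 in normal, and for Ccr4 4.65 in tumor and 5.71 in normal. S1pr1, the receptor for tissue exit, went with less Rgs1, at 0.538 in tumor and 0.667 in normal cells.

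Among Foxp3- cells, Rgs16 was higher beside Cxcr3 in both libraries and beside Ccr8 in the tumor library. Cxcr3+ Foxp3- cells had 111 CPM of Rgs16 against 17.3 in other tumor cells (6.38-fold, 5.41 to 7.52) and 22.9 against 3.48 in normal cells (6.58-fold, 4.01 to 10.4). Ccr8+ Foxp3- cells, positive for a receptor common on tissue Tregs, had 89.7 against 15.7 in tumor (5.72-fold, 4.88 to 6.71) and 6.44 against 4.12 in normal (1.56-fold, 0.657 to 3.19, from 8 UMIs). In tumor Foxp3+ cells the Cxcr3 split lay on the other side, with 299 CPM of Rgs16 in Cxcr3+ and 329.6 in other cells (ratio 0.907, 0.828 to 0.992). Ccr8+ cells among them had 379 against 166 (2.28-fold, 2.01 to 2.58), and Rgs2 there was 589 against 328 (1.80-fold, 1.64 to 1.97). S1pr1+ tumor Foxp3+ cells had less of each, with positive over other ratios of 0.402 for Rgs16 (0.358 to 0.450), 0.586 for Rgs2 (0.541 to 0.635) and 0.724 for Rgs1 (0.682 to 0.768). Tumor Foxp3+ cells with a UMI of Il1rl1, the IL33 receptor ST2, a gene added after seeing the data, differed little from the rest, with ratios of 0.965 for Rgs1 (0.894 to 1.04), 1.16 for Rgs2 (1.06 to 1.27) and 1.09 for Rgs16 (0.969 to 1.23).

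Several receptor-positive classes of normal Foxp3- cells with high Rgs1 had low Rgs10. Cells positive for S1pr5, a sphingosine phosphate receptor of circulating effector lymphocytes, held 21.0 CPM of Rgs10, from 6 UMIs in 57 cells, against 369 in other cells (ratio 0.0570, 0.0209 to 0.124). Cx3cr1+ cells, another effector class, had 73.2 against 369 (0.198, 0.131 to 0.289). The same S1pr5+ and Cx3cr1+ cells had Rgs1 ratios of 5.69 and 5.22. For Cxcr3 the Rgs10 ratio was 0.737 in tumor (0.675 to 0.803) and 0.393 in normal cells (0.333 to 0.461). Ccr8+ Foxp3- cells had more Rgs10 than others, 1.36-fold in tumor and 1.39-fold in normal.

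**Figure D4:**
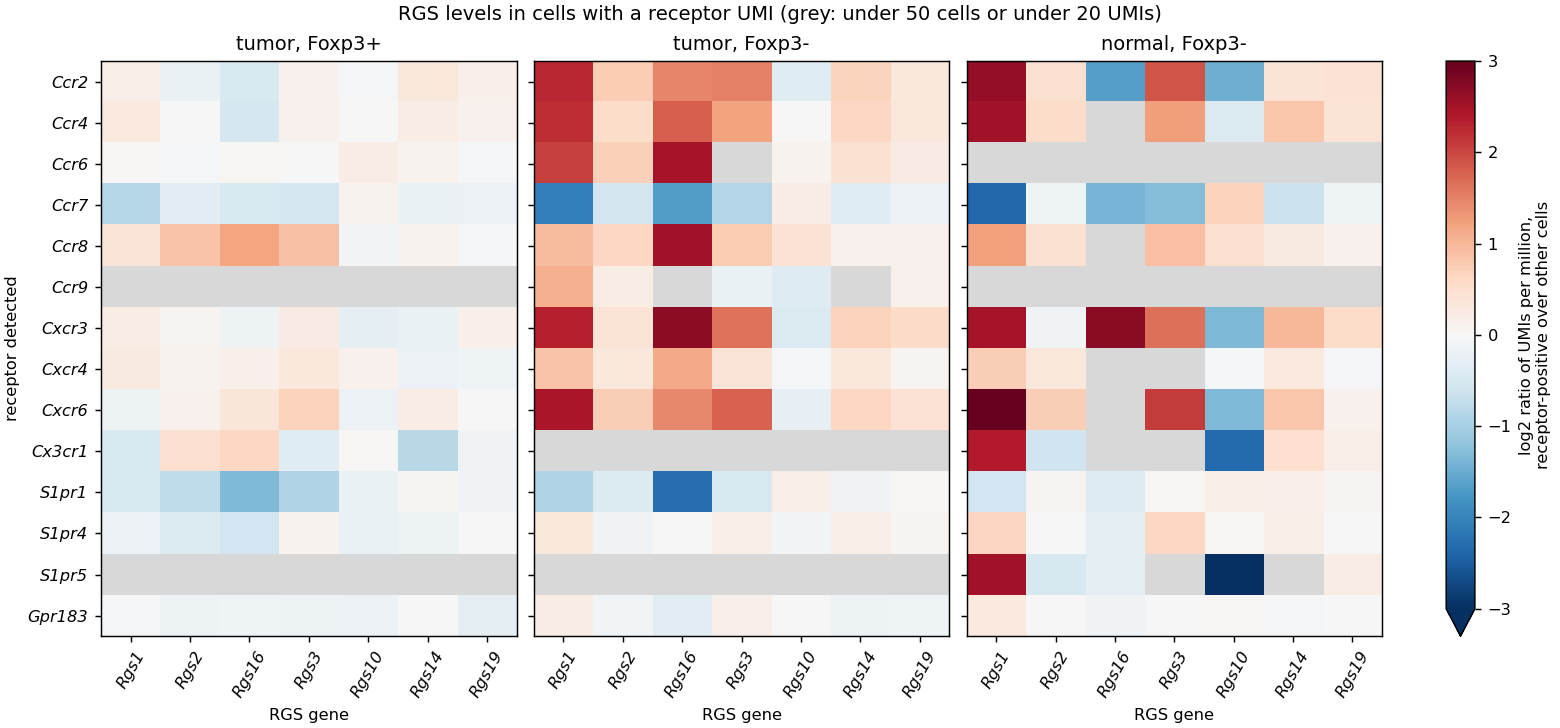
Log2 ratio of CPM in cells with a UMI of a receptor (rows) over other cells, for each RGS gene (columns), in tumor Foxp3+, tumor Foxp3- and normal Foxp3- cells; grey marks fewer than 50 positive or other cells, or fewer than 20 UMIs on the higher side. Rgs1 is red beside Cxcr6, Cxcr3 and Ccr2 in both Foxp3- panels, and Rgs10 is blue beside S1pr5 (ratio 0.0570) and Cx3cr1 (0.198) in normal cells.

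Receptor sequences allowed a comparison of expanded clones, those with 2 or more cells sharing all productive CDR3 sequences in a library, with clones of a single cell. Among tumor Foxp3- Ccr7- cells, 80 expanded cells of 47 clones had 1326 CPM of Rgs1 against 618 in 790 single cells (2.15-fold, 1.95 to 2.36), and 196 against 30.9 of Rgs16 (6.34-fold, 4.67 to 8.59). Among normal Foxp3- Ccr7- cells, 90 expanded cells of 33 clones had 520.1 of Rgs1 against 289 (1.80-fold, 1.52 to 2.12), with 60 of 207 UMIs from 1 clone. Rgs16 had 0 UMIs in these 90 cells, which allows up to 7.54 CPM, against 14.2 in 410 single cells, and Rgs10 was at 55.3 against 280.4 (0.197, 0.122 to 0.302). For Rgs10, tumor expanded cells had 276 against 322 in single cells. Rgs1 was thus higher in expanded cells of both libraries, while Rgs16 was on opposite sides, a contrast that was not tested. Clone size was counted over all gates of a library, so the sister cells of an expanded Foxp3- cell may be Foxp3+. Of 141 expanded clones in tumor, 110 had Foxp3+ and 52 had Foxp3- cells, so some held both. In normal the numbers were 6 and 79 of 82. The part of such clones in the Rgs16 ratios was not tested. Tumor Foxp3+ Ccr7- expanded cells had Rgs1 at 1012 against 1034 and Rgs16 at 448 against 295 (1.52-fold, 1.34 to 1.71).

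**Figure D5:**
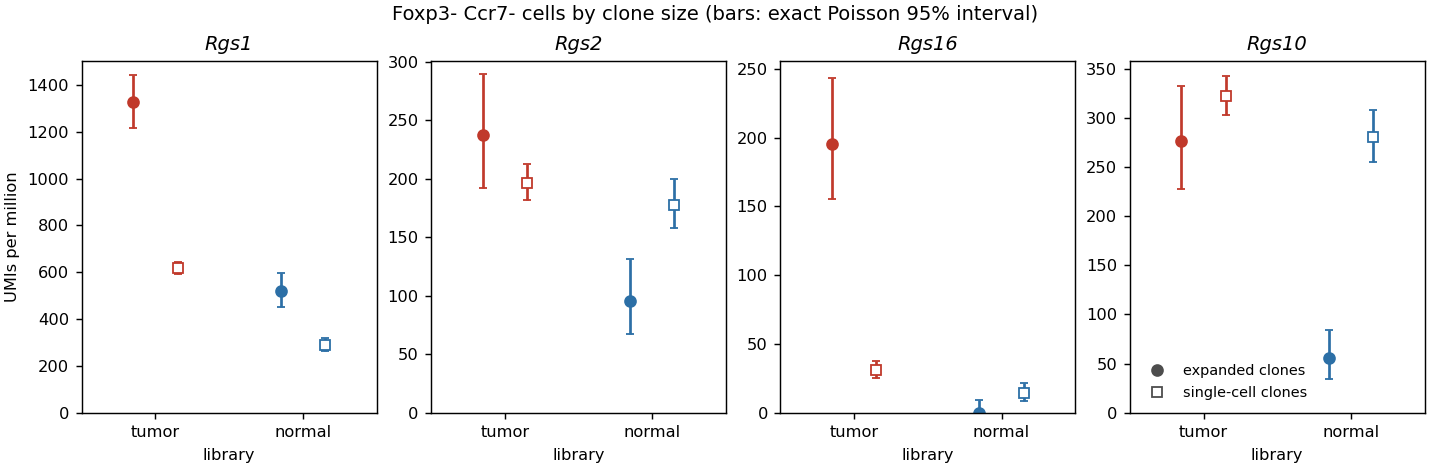
CPM of 4 RGS genes in expanded clones (filled circles) and single-cell clones (open squares) of Foxp3- Ccr7- cells, tumor library left, with exact Poisson 95% intervals. Rgs16 is at 196 in tumor expanded cells and at 0 UMIs in normal ones, and Rgs10 is at 55.3 in normal expanded cells.

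Other parts of the pathway, taken from fixed lists, were described beside the members in the Foxp3+ Ccr7+ gate, where the normal library had 175 cells and, over all genes counted, 29.3% were higher past 1.5-fold in tumor and 5.55% lower. Of 22 chemoattractant receptors 12 had enough UMIs, 8 were higher past 1.5-fold in tumor and 3 lower. Ccr7, which defines this gate, is among the 3 lower, at 1107 CPM in tumor and 1949 in normal. Ccr8 was 455 CPM in tumor and 34.8 in normal (13.1-fold), Cxcr3 154 in tumor and 16.7 in normal (9.17-fold), and S1pr1 194 in tumor and 472 in normal (ratio 0.412). Of 24 G protein subunit genes 14 had enough UMIs and 8 were higher, among them Gna13, a G12 family α subunit, at 391 in tumor and 238 in normal, and Gng2 at 82.1 in tumor and 23.2 in normal. Of 13 receptor kinases, arrestins and modulators 8 had enough UMIs and 2 were higher, a share below that of all genes, among them the arrestin Arrb2 at 182 in tumor and 95.3 in normal. Of 20 Gi effector genes 17 had enough UMIs, 3 were higher, again a smaller share than over all genes, and 4 lower, with Rasgrp2, an activator of Rap1, at 122 in tumor and 215 in normal.

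In Foxp3- Ccr7+ cells, the largest gate, 6.57% of all genes counted were past 1.5-fold higher. Of 15 receptors counted 6 were past 1.5-fold higher, with Ccr8 at 48.9 CPM in tumor and 14.6 in normal, 2 of 16 G protein subunits were, 1 of 12 kinases, arrestins and modulators, and 0 of 19 effectors. Ccr7, which defines this gate, is among the 15, at 1223 CPM in tumor and 1678 in normal. The list of immediate early and dissociation genes had 10 of 21 higher, with Egr1 at a ratio of 2.20 and Zfp36 at 917 in tumor and 515 in normal. Its summed level was higher in tumor in every gate, at 11795 CPM in tumor and 10315 in normal Foxp3+ Ccr7- cells, 11101 in tumor and 9154 in normal Foxp3+ Ccr7+ cells, 12670.3 in tumor and 9511 in normal Foxp3- Ccr7- cells, and 11283 in tumor and 8549 in normal Foxp3- Ccr7+ cells. The part of this list in the RGS differences was not tested.

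By the likeness of their log2 levels over the 8 combinations of library and gate, among 8927 genes, the nearest to Rgs1 were Tnfaip3 (Pearson r = 0.981), Gna13 (0.979) and Plekho2 (0.978). Nearest to Rgs2 were Wls and Tnfrsf18 (0.995 each) and Ubald2 (0.994), and nearest to Rgs16 were Mettl26 (0.983), Tnfrsf9 (0.981) and Ebi3 (0.978). Rgs10 was nearest to Mapk8 (0.972), Ppcdc and Tpst1 (0.956 each). Rgs3 was nearest to Sytl3 and Chmp6 (0.975 each), Rgs14 to Psma2 and Surf4 (0.989 each) and Rgs19 to Eif3a, Btbd19 and Zfp706 (0.976 each). Between members, r was 0.91 for Rgs2 and Rgs16, 0.75 for Rgs1 and Rgs2, 0.96 for Rgs3 and Rgs14, and -0.36 for Rgs1 and Rgs10. The 8 points share 2 libraries and are a description, with no test.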

How the data were processed

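Per the file headers, the deposited matrices hold unnormalized UMI counts, written by Cell Ranger 3.1.0, and mm10 is the build in the submitters' processing notes. The deposited receptor tables give contigs with UMI and read counts. Cells with under 500 genes or at least 10% mitochondrial UMIs were left out (120 tumor, 61 normal), as were cells with over 2 productive alpha or over 1 productive beta chains (533 tumor, 602 normal); no doublet caller was run on expression. Counts were summed per gate and scaled to CPM. Intervals are exact Poisson, exact conditional (ratios) and Clopper-Pearson (shares), at 95%, treat UMIs of 1 cell as independent and cover counting error only. A count of 0 was set to 3 counts. The named genes were all 7 members, the 3 nearest genes by likeness of log2(CPM + 1), and up to 4 genes by ratio and 2 by level per list. Members and lists were chosen with earlier results of these data known. Call rules were checked on counts simulated from the Poisson model that the intervals assume, so the check does not cover spread between cells. Alternatives covered cell filters, gates, depth, scaling, thresholds and left-out cells. Python 3.11.15, numpy 2.4.6 and scipy 1.17.1 were used. Of the fixed list of receptors, 1 is not reported here.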

Additional observations from a re-analysis of the deposited data

Results flagged for a closer look

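Each result here was singled out because groups lay on opposite sides of 1 with counting intervals that exclude 1. None of these differences was tested, since there is 1 library per tissue. The tumor over normal ratio of Rgs10 was 1.51 in Ccr7- and 0.791 in Ccr7+ cells of the Foxp3+ class, and 1.33 in Ccr7- and 0.965 in Ccr7+ cells of the Foxp3- class. In Foxp3+ Ccr7- cells its log2 ratio turned to -0.17 without cells carrying an other-lineage marker, which left 7 normal cells and put both Foxp3+ gates on the same side. Rgs16 in expanded over single clones of Foxp3- Ccr7- cells was 6.34 for tumor and 0 for normal, where 0 UMIs against 22 gave an upper bound of 0.712. Clone size was counted over all gates, so some of these clones may also hold Foxp3+ cells. Rgs2 in S1pr4+ over other Foxp3+ cells was 0.758 in tumor and 1.91 in normal (1.45 to 2.54).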

How the results depend on the processing

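No paired analysis was possible because there is 1 library per tissue and no replicate number; leaving out a library was likewise not run. Under other settings 145 counts of members stayed within 1.5 times and 25 did not, for which the cause was not tested. The share of all genes under each of these settings was not computed, so the counts below stand without it. With 5 members past 1.5-fold in tumor over normal Foxp3+ Ccr7- cells, 3 were past 2-fold, 3 had an interval without 1, and 3 were left without cells carrying other-lineage markers when Cd79b and Pecam1 were not used as markers; in Foxp3+ Ccr7+ cells 3 were past 2-fold. Rgs10 in that first gate was at -0.17 (log2), and Rgs3 in Foxp3+ Ccr7+ cells at -0.02, without any other-lineage marker cell; Rgs3 in Foxp3+ Ccr7- cells was at -0.27 with Cd79b and Pecam1 not used. For Foxp3+ over Foxp3- in Ccr7- cells, 4 members replaced 2 in tumor after thinning. In normal, with 31 Foxp3+ cells, 2 replaced 1 with gates at 2 UMIs, thinning, median-of-ratios scaling, totals without mitochondrial and ribosomal protein genes, no minimum, no Mki67 or Top2a cells, Foxp3- cells without Treg markers, Cd79b and Pecam1 not used, or 1 cell per clone, and 3 with a mean over cells or no other-lineage cells. For Ccr7- over Ccr7+ in tumor Foxp3+ cells, 2 replaced 1 with receptor doublets kept, gates at 2 UMIs or thinning, 0 at 2-fold, and 4 without other-lineage cells under either marker list. In normal Foxp3+ cells 0 replaced 3 without other-lineage cells, and in normal Foxp3- cells 3 replaced 5 by thinning or at 2-fold. The settings on Treg markers, Cd79b and Pecam1, and clones were chosen after seeing the data. Over 13 alternatives the tumor over normal log2 ratio of Rgs16 ran from 1.52 to 3.76 and that of Rgs1 from 0.98 to 3.11 across the gates. Median-of-ratios scaling subtracted shifts of -0.12 to 0.38 from the log2 ratios.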
